A study of Mus musculus with 6 samples.

Results

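Kinesins are ATP-driven motors that move along microtubules or shorten them. Some build and run the mitotic spindle and the cleavage of dividing cells, and their genes are usually transcribed late in the cell cycle. Others carry vesicles, mitochondria, endosomes and ciliary parts in cells that need not divide. The members described here are the protein-coding genes with a symbol made of Kif and a number, without Kif23 and Kif20a. There were 37 of them among the 55401 gene identifiers of the table. They were sorted by textbook function into 10 mitotic kinesins, 13 transport kinesins and 14 other genes, which hold ciliary, signalling and microtubule-regulating kinesins and Kif1bp, a kinesin-binding protein that is not itself a motor.

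The members were measured in ADC106, a single mouse line from angiosarcoma, a tumour of vessel-lining cells. One group, with the genotype label WT, received a mimic labelled NC. The other, labelled as miR-497 overexpression, received an miR-497 mimic, a short synthetic RNA of the kind that loads the microRNA pathway. Both were given at 12.5 nM to cells in the same medium, RNA was taken on day 3, and each group had 3 libraries. The labels do not say whether the libraries of a group came from separate transfections, so the p-values measure only the spread between these libraries. Totals ran from 25777676 to 36159499 counts per library. Single library values are given in the order 1 to 3, the error of a mean is the SD over 3 libraries, and changes on the log2 scale are miR-497 over NC with their standard error. All 12 endothelial markers of a marker list passed the filter on low counts. Their summed level was 9142 to 9848 CPM (counts scaled to library size after TMM correction) with NC and 9061 to 9449 with miR-497. The sum hides changes in both directions, from -0.94 (Egfl7) to 1.03 (Emcn) on the log2 scale. At an edgeR adjusted p under 0.05, 7 of the 12 were higher and 3 lower, against 23.8% and 26.0% of all genes tested. Summed immune markers lay at 9.53 to 10.7 and 15.8 to 21.1 CPM, with Cd3e and Itgam at 0. Most of that sum was Cd68, which rose from 8.26 ± 0.197 to 17.5 ± 2.39 CPM (1.08 ± 0.118 on the log2 scale, adjusted p = 9.7e-07 by edgeR). The summed epithelial markers were at no more than 1.63 CPM. Fibroblast and mural markers summed to 208.8 to 218.9 CPM with NC and 260.9 to 308.7 with miR-497. Of the 6 tested, Col1a1 (0.84 ± 0.0603 on the log2 scale, adjusted p = 7.4e-09 by edgeR) and Acta2 (0.92 ± 0.0691 on the log2 scale, adjusted p = 1.1e-08 by edgeR) rose, Pdgfrb fell (-0.37 ± 0.1 on the log2 scale, adjusted p = 0.005 by edgeR) and 3 did not pass, while Lum was at 0. The part of these markers in the results was not tested.

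With the miR-497 mimic the mitotic kinesins were called in one direction and the transport kinesins in both. Each of the 9 tested mitotic kinesins was lower with the miR-497 mimic, by 1.52-fold to 1.81-fold, and in each the 3 miR-497 libraries lay below the 3 NC libraries. The single direction depends on the sorting. Kif2a, which has spindle and neuronal roles, was placed in the remaining class. With Kif2a counted as mitotic, 1 mitotic kinesin was higher. The 13 transport kinesins split, with 3 lower, 6 higher and 4 that did not pass the test, and held both a 3.41-fold fall (Kif5c) and a 2.29-fold rise (Kif1a). Of the 13 tested genes in the remaining class, 3 were lower, 4 higher and 6 did not pass; without NC replicate 1 or miR-497 replicate 3 only 1 of these was called lower. Over all 14661 genes tested, 26.0% were called lower and 23.8% higher at an adjusted p under 0.05 in edgeR's quasi-likelihood test. The 6 higher of 13 transport kinesins and the 9 lower of 9 mitotic kinesins are to be read against those shares. The 3 lower of 13 transport kinesins, and the 3 lower and 4 higher of 13 in the remaining class, lie near them. The groups did not overlap, with miR-497 lower, for 29.6% of all genes tested, and with miR-497 higher for 27.8%. The median log2 fold change, miR-497 over NC, was -0.74 for mitotic kinesins, 0.19 for transport kinesins, 0.22 for the others and -0.02 for all genes tested. The difference between the mitotic and the transport median was -0.93. The members are genes of one family and not replicates, so these medians carry no test.

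**Figure D1:**
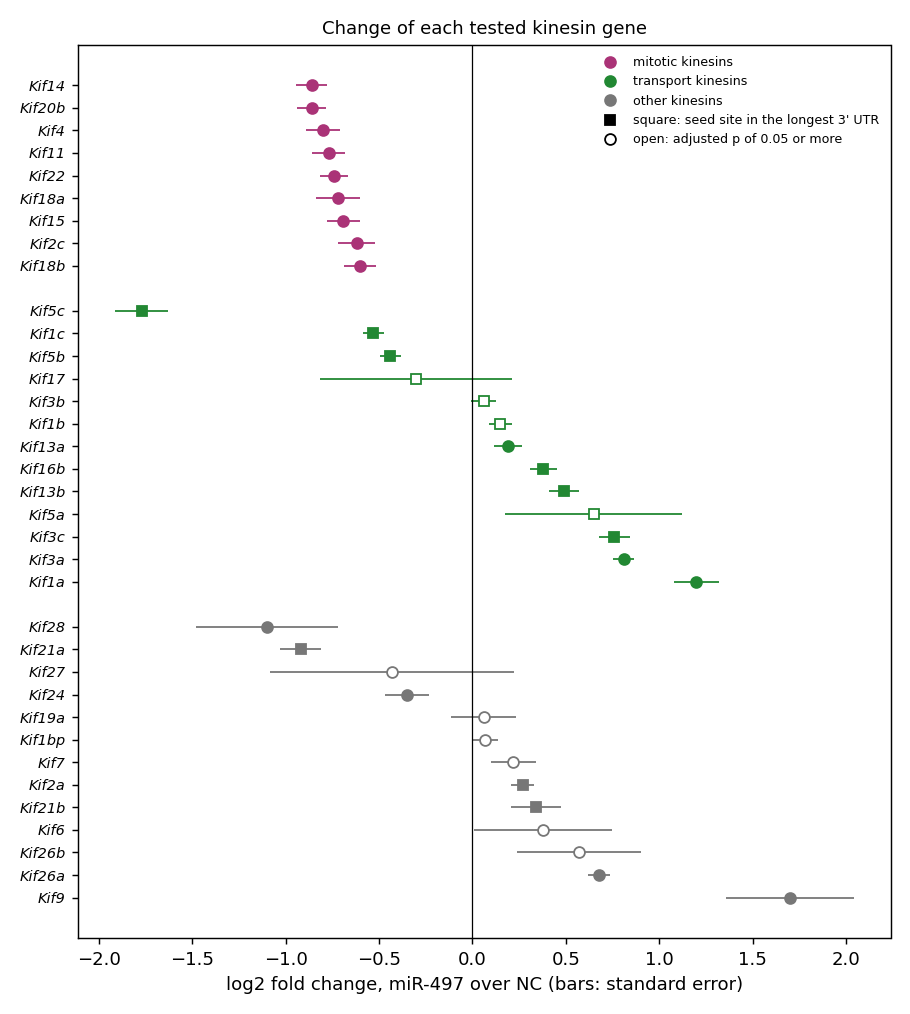
Log2 fold change (miR-497 over NC) of the 35 tested kinesin genes with its standard error, by class; filled symbols had an edgeR adjusted p under 0.05, and squares mark genes with a miR-497-5p seed site in the longest 3′ UTR. The 9 mitotic kinesins sit between -0.86 and -0.60 and none is a square, while the transport kinesins run from -1.77 to 1.20.

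Kinesins that build the spindle fell together. Kif11 (ENSMUSG00000012443, chr19:37376403-37421859 in GRCm38), the motor that pushes the spindle poles apart, was measured at 93.9, 101 and 99.7 CPM in the NC libraries and at 55.5, 68.05 and 48.6 CPM in the miR-497 libraries. Every miR-497 value lay below every NC value, and the mean went from 98.3 ± 3.87 to 57.4 ± 9.85 CPM (SD, n = 3; -0.77 ± 0.0908 on the log2 scale, adjusted p = 2.1e-06 by edgeR). Kif15, which helps Kif11 keep the spindle bipolar, had 38.8, 33.5 and 37.5 CPM with NC and 22.8, 24.9 and 20.2 CPM with miR-497. Its groups were also apart (-0.69 ± 0.0879 on the log2 scale, adjusted p = 5.2e-06 by edgeR). In bulk RNA, fewer cells that express these genes and less RNA in each cell cannot be told apart.

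Motors that act on chromosomes and microtubule ends fell by similar amounts. The chromokinesin Kif4, which binds chromosome arms and shapes the central spindle, stood at 48.7, 50.04 and 54.9 CPM with NC and 31.1, 32.3 and 24.8 CPM with miR-497. It fell in all 3 libraries relative to NC (-0.80 ± 0.0911 on the log2 scale, adjusted p = 1.5e-06 by edgeR). An opposite-strand gene, Pdzd11, covers 15.1% of the Kif4 exon bases. Pdzd11 rose (0.33, edgeR adjusted p = 0.0076), the opposite direction to Kif4, and the strand setting of the counting was not given in the sources used here. Kif22, the other chromokinesin, had 40.9, 42.5 and 40.3 CPM with NC and 23.2, 24.3 and 26.4 CPM with miR-497, with closely spaced values in each group (-0.74 ± 0.0736 on the log2 scale, adjusted p = 3.1e-07 by edgeR). The depolymerase Kif2c, which frees wrongly attached kinetochores, had 52.9, 48.3 and 51.9 CPM with NC and 32.9, 38.9 and 27.5 CPM with miR-497, with miR-497 library 2 closest to the NC range (-0.62 ± 0.0986 on the log2 scale, adjusted p = 5.2e-05 by edgeR).

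Kif18a and Kif18b, kinesin-8 motors that limit microtubule growth at plus ends, both fell; Kif19a, a kinesin-8 outside the mitotic class, did not pass the test (0.06 ± 0.173 on the log2 scale, adjusted p = 0.81 by edgeR). Kif18a, which holds chromosomes at the spindle equator, had 18.8, 15.6 and 16.3 CPM with NC and 11.5, 10.4 and 8.86 CPM with miR-497 (-0.72 ± 0.119 on the log2 scale, adjusted p = 7.7e-05 by edgeR). Kif18b, which acts on astral microtubules, had 53.8, 57.4 and 59.6 CPM with NC and 35.9, 42.9 and 33.8 CPM with miR-497. Its change was the smallest of the class (-0.60 ± 0.0849, adjusted p = 1.7e-05 by edgeR), with the groups still apart.

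Among the kinesins of cytokinesis, Kif14, which works with citron kinase at the midbody, had 35.4, 31.5 and 36.6 CPM with NC and 19.4, 19.9 and 17.9 CPM with miR-497. Kif20b, needed for the final cut between daughter cells, had 104, 92.9 and 92.8 CPM with NC and 57.1, 56.1 and 46.5 CPM with miR-497. Both changed by -0.86 on the log2 scale, the largest fall of the class (Kif14, ± 0.0837, adjusted p = 2.6e-07 by edgeR; Kif20b, ± 0.0776, adjusted p = 1.1e-07 by edgeR). The remaining mitotic member, the depolymerase Kif2b, was listed at 0 in all 6 libraries. Prc1, which dividing cells use, was listed at 0 as well, so a 0 in this table need not mean that a gene is silent.

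**Figure D2:**
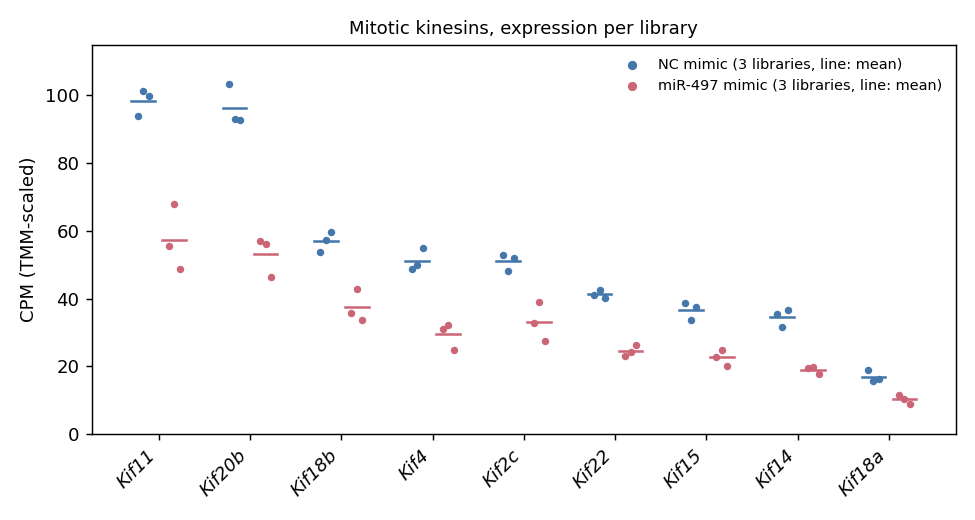
Expression of the 9 tested mitotic kinesins in CPM (linear axis) in each library, with lines at group means. In every gene the 3 miR-497 points are below the 3 NC points.

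The mitotic kinesins moved with general markers of dividing cells. All 12 genes of a proliferation list, which holds Mki67, Top2a, Plk1, Aurka and cyclins, were lower, with log2 fold changes from -1.27 to -0.45 and a median of -0.80. Their summed level was 1715 to 1873 CPM with NC and 886.2 to 1121 CPM with miR-497. The list is not free of kinesins, because it holds Cenpe, a mitotic kinesin outside the naming rule. Cenpe had the smallest fall of the list (-0.45 ± 0.0932 on the log2 scale, adjusted p = 0.00073 by edgeR), smaller than in any of the 9 mitotic members. Among the miR-497 libraries, library 3 was the lowest for 8 of 9 mitotic kinesins and for 12 of 12 proliferation markers. Kif22, with its lowest value in library 1, was the exception. The share of all genes tested that were lowest in library 3 was not counted. How much of the kinesin result goes with the markers was not tested. Of 14 tested partners of mitotic kinesins, 12 were lower and 1 higher (median -0.58), against 26.0% lower and 23.8% higher among all genes tested. The fall was largest in Aurkb, the kinase of the chromosomal passenger complex that regulates Kif2c, from 68.4 ± 2.61 to 33.1 ± 4.49 CPM (-1.05 ± 0.0866 on the log2 scale, adjusted p = 3.6e-08 by edgeR). Ncapd2, a subunit of the condensin that works beside Kif4, fell from 179 ± 3.24 to 120.4 ± 7.03 CPM (-0.57 ± 0.0546 on the log2 scale, adjusted p = 1.9e-07 by edgeR). Ncapg, another condensin subunit, changed by -0.81 (± 0.0787, adjusted p = 2.6e-07 by edgeR), and Smc2, their common core, -0.68 (± 0.0677, adjusted p = 3.5e-07 by edgeR). Mapre3, one of the plus-end proteins to which kinesins dock, rose (0.77 ± 0.111, adjusted p = 1.9e-05 by edgeR). Kifc1, a minus-end motor of the spindle outside the naming rule, fell from 73.6 ± 0.654 to 45.3 ± 2.87 CPM (-0.70 ± 0.0657 on the log2 scale, adjusted p = 1.6e-07 by edgeR). Kifc3, which is not a dedicated spindle motor, rose by 0.24 (± 0.0916, adjusted p = 0.036 by edgeR), but its groups overlapped and 27.5% of its exon bases lie under genes on the opposite strand.

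Promoters were compared because the 9 genes moved together. The cell cycle homology region (CHR), a short element that the DREAM and MuvB complexes bind in late cell cycle genes, was searched as TTTGAA or TTCGAA on both strands from 250 bases before to 50 after each RefSeq transcript start (GRCm38.p6). It was present in 8 of 9 mitotic kinesin promoters (88.9%), in 1 of 10 transport kinesins with a promoter in the table, in 3 of 9 other members, and in 16.9% of the 10816 tested genes with a promoter. Among all genes called lower the share was 18.8%. A CCAAT box, the NF-Y element, accompanied it in 5 of the 9 mitotic promoters and in 8.32% of all tested genes with a promoter. E2F-type letters were searched on both strands as TTCCCGC. The form TTTGGCG was searched in the same way. The form TTTCGCG was searched as well. Any of these was found in 2 of 9, Kif15 and Kif18a, against 13.3% of the tested genes with a promoter. In Kif15 the E2F letters directly precede the CHR. The CHR match nearest to the start began 19 bases before the start in Kif11 and in Kif15 and 17 before it in Kif22; Kif15 and Kif22 each had another further upstream. It lay 103 and 228 bases before the start in Kif2c and Kif14, and 3, 7 and 19 bases after it in Kif18b, Kif20b and Kif4. In Kif20b a second TTTGAA followed directly. Kif18a had none in this window. The stretches up to the start are shown for the 3 genes with the match closest upstream, from 5′ to 3′ on the gene's strand, with the CHR and the CCAAT box in capitals. Read on the other strand the CHR appears as TTCAAA. Likewise, the CCAAT box then appears as ATTGG.
Kif11, chr19:37376313-37376381, plus strand: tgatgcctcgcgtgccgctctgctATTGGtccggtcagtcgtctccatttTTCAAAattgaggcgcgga
Kif15, chr9:122951012-122951080, plus strand: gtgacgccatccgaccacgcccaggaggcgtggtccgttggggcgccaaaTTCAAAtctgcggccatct
Kif22, chr7:127042421-127042487, minus strand: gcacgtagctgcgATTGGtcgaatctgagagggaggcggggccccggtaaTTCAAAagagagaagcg
These 3 were picked for a match close to the start, so their similar distances say nothing about the class. Kif11 and Kif22 have a reversed CCAAT box further upstream. A match describes letters and is not evidence of binding in these cells.

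**Figure D3:**
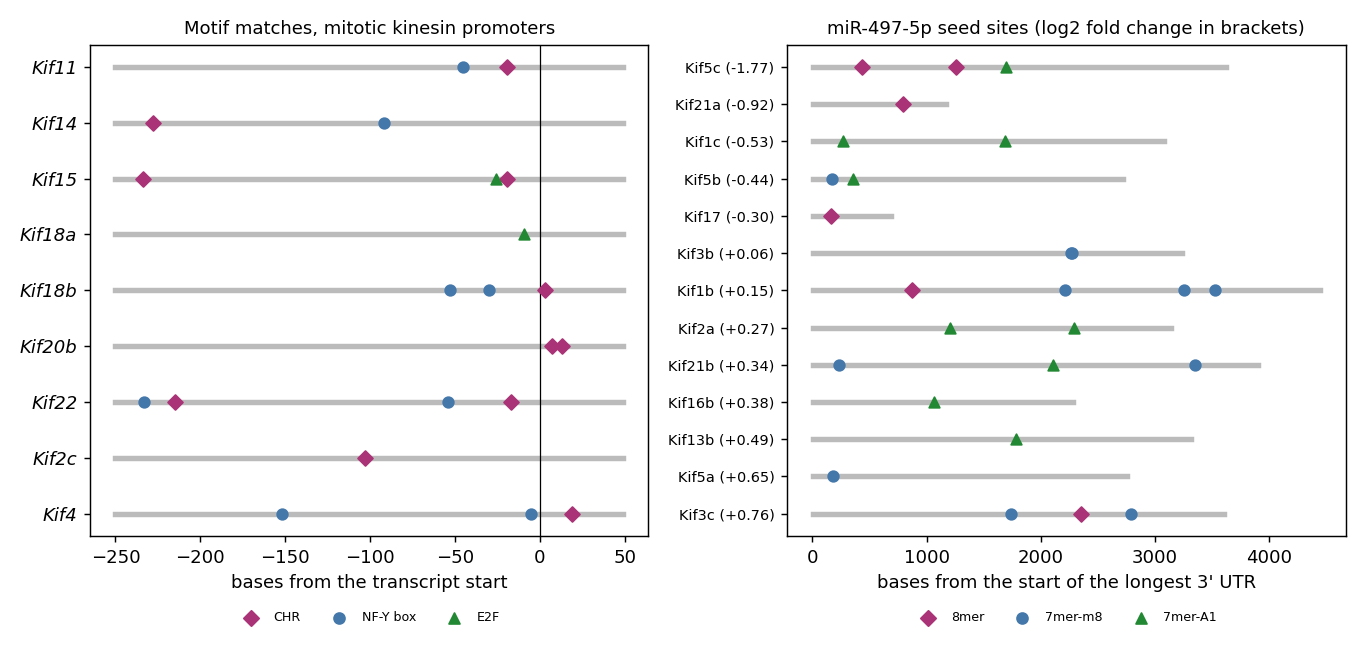
Left, matches of CHR, CCAAT (NF-Y box) and E2F letters in the promoters of the 9 tested mitotic kinesins, by distance in bases from the transcript start. Right, miR-497-5p seed sites by type along the longest 3′ UTR of the 13 tested kinesins that have one, ordered by log2 fold change; Kif5c at the top carries 2 8mers, and Kif3c at the bottom carries 1 8mer.

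MicroRNA seed sites were distributed otherwise. The guide strand miR-497-5p pairs through bases 2 to 8, its seed, shown in capitals in the RefSeq sequence of the mouse mature form (GRCm38.p6, chr11:70234730-70234751, plus strand). The same seed is carried by miR-15a-5p, miR-15b-5p, miR-16-5p, miR-195a-5p and miR-322-5p. The labels do not give the sequence of the mimic.
miR-497a-5p: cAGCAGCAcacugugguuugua
A site was counted when the longest GENCODE M21 3′ UTR of a gene held TGCTGCT (7mer-m8), TGCTGCTA (8mer) or GCTGCTA (7mer-A1). None of the 9 tested mitotic kinesins had a site, while 10 of 13 transport kinesins (76.9%) and 3 of 13 others did. Of the 12859 tested genes with a 3′ UTR, 28.1% had one. The 3′ UTRs of the mitotic kinesins were short, with a median of 555 bases, and those of the transport kinesins long, with a median of 2993 bases, against 1187 for all tested genes. Among all genes called lower 40.5% had a site, and among those called higher 20.1%. Of the 15 kinesins called lower 4 had a site, and of the 10 called higher 5 did. These 2 sets differ in length, with median 3′ UTRs of 671 bases (lower) and 2638 bases (higher). Among all genes the medians were 1235 bases (lower) and 1241 bases (higher). In coding sequence TGCTGCT was present in 3 of 9 mitotic kinesins (33.3%), against 34.8% of all tested genes. With the shortest 3′ UTR of each gene in place of the longest, 8 of the 35 tested members (22.9%) had a site in place of 13, against 16.6% of all tested genes, and 5 of 13 transport kinesins (38.5%) in place of 10. Kif9 had a site in its shortest 3′ UTR only. In the longest 3′ UTR 5 of the 35 members (14.3%) had an 8mer, against 4.61% of all tested genes.

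Kif5c (ENSMUSG00000026764, chr2:49619298-49774778), a heavy chain of conventional kinesin that is mostly known from neurons, fell most of the transport kinesins. It was measured at 13.6, 14.7 and 18.5 CPM in the NC libraries and at 4.34, 4.85 and 4.46 CPM in the miR-497 libraries. The mean went from 15.6 ± 2.60 to 4.55 ± 0.266 CPM (SD, n = 3; -1.77 ± 0.142 on the log2 scale, adjusted p = 2.5e-08 by edgeR), with a wide gap between the groups. Its 3′ UTR of 3621 bases held 2 8mers and a 7mer-A1, shown with the site in capitals.
Kif5c 8mer, chr2:49771590-49771597, plus strand: caaaaaaaaagTGCTGCTAtagggttcaaa
Kif5c 8mer, chr2:49772417-49772424, plus strand: tcgctactatgTGCTGCTAtttgttttcat
Kif5c 7mer-A1, chr2:49772856-49772862, plus strand: tgccactgttgGCTGCTAttggagtctgat
Kif5b, the heavy chain that most cells use, was more abundant per length, at 34.3 ± 0.630 CPM per kb of exon with NC against 2.18 ± 0.365 for Kif5c. It had 272, 269.5 and 279 CPM with NC and 191, 217 and 196 CPM with miR-497 and fell (-0.44 ± 0.0564 on the log2 scale, adjusted p = 5.2e-06 by edgeR). Its 3′ UTR had a 7mer-m8 and a 7mer-A1. Kif5a, the third heavy chain, with a 7mer-m8, had 11 to 32 counts per library and did not pass the test (0.65 ± 0.473 on the log2 scale, adjusted p = 0.27 by edgeR); without NC replicate 1 the value was 1.28 (adjusted p = 0.06). The light chains that join these heavy chains to cargo did not move as a block. Klc2 fell from 48.6 ± 0.633 to 20.4 ± 1.21 CPM (-1.25 ± 0.0724 on the log2 scale, adjusted p = 5.2e-10 by edgeR) and Klc1 fell (-0.34 ± 0.0686 on the log2 scale, adjusted p = 0.00049 by edgeR). Klc4 rose (0.29 ± 0.0899, adjusted p = 0.013 by edgeR), and Klc3, with 1 to 43 counts per library, fell (-2.42 ± 0.709, adjusted p = 0.0092 by edgeR).

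Kinesin-3 motors carry vesicles and endosomes. Kif1c, which moves Golgi and integrin vesicles, was the most abundant member per kilobase of exon, at 48.95 ± 2.43 CPM per kb with NC (SD, n = 3). It had 339, 356 and 374 CPM with NC and 240.3, 258 and 243 CPM with miR-497, with a clear gap between the groups (-0.53 ± 0.0551 on the log2 scale, adjusted p = 5.8e-07 by edgeR). Its 3′ UTR had a pair of 7mer-A1 sites.
Kif1c 7mer-A1, chr11:70729149-70729155, plus strand: gtcccacaaacGCTGCTAtgggtgggtggg
Kif1c 7mer-A1, chr11:70730567-70730573, plus strand: acttaaactggGCTGCTActctgcagggtc
Kif1a, a carrier of synaptic vesicle precursors, moved the other way, with 6.37, 6.30 and 6.68 CPM with NC and 15, 16.3 and 12.99 CPM with miR-497. It rose 2.29-fold from a low level (1.20 ± 0.123 on the log2 scale, adjusted p = 5e-07 by edgeR) and had no site. Kif1b, which carries mitochondria and vesicles and had 4 sites including an 8mer, was measured at 138, 133 and 152 CPM with NC and 158, 166 and 145 CPM with miR-497. Its groups overlapped and it did not pass (0.15 ± 0.0628 on the log2 scale, adjusted p = 0.063 by edgeR); the adjusted p was 0.011 without NC replicate 3 and 0.019 without miR-497 replicate 3. Kif13b, a carrier of endosomes and receptors, had 22.2, 19.8 and 23.4 CPM with NC and 29.8, 31.4 and 30.4 CPM with miR-497. It rose with no overlap of the groups (0.49 ± 0.0822 on the log2 scale, adjusted p = 0.0001 by edgeR), and its 3′ UTR held a 7mer-A1. Kif16b, which moves early endosomes, had 26.4, 25.6 and 26.99 CPM with NC and 34.3, 32.96 and 35.7 CPM with miR-497. It rose as well (0.38 ± 0.0714 on the log2 scale, adjusted p = 0.00027 by edgeR) and also held a 7mer-A1. The rise of Kif13a, which serves recycling endosomes, was small, with 45.7, 44.7 and 49.7 CPM with NC and 49.9, 57.8 and 52.1 CPM with miR-497 (0.19 ± 0.0738 on the log2 scale, adjusted p = 0.04 by edgeR). It did not pass without NC replicate 1, NC replicate 2 or miR-497 replicate 2 (edgeR adjusted p = 0.12, 0.15 and 0.18).

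Kinesin-2 motors, which drive transport in cilia and of other cargo, had subunits that changed unequally. Kif3a was 66.5, 65.2 and 65.4 CPM with NC and 113, 112 and 119.7 CPM with miR-497. The values within each group were close and every miR-497 value was far above every NC value (0.81 ± 0.0554 on the log2 scale, adjusted p = 3.8e-09 by edgeR). Kif3c, which can replace Kif3b as the partner of Kif3a, rose as well, with 19.3, 21.2 and 22.6 CPM with NC and 34.9, 33.8 and 38.2 CPM with miR-497 (0.76 ± 0.0826 on the log2 scale, adjusted p = 8.7e-07 by edgeR). Opposite-strand genes cover 40.7% of the Kif3c exon bases, most of them by the antisense gene 1110002L01Rik (log2 fold change 0.27, edgeR adjusted p = 0.14), so its value is uncertain if strand was not used. The 3′ UTR of Kif3c held an 8mer and a pair of 7mer-m8 sites, of which the 8mer is shown for comparison with those of Kif5c.
Kif3c 8mer, chr12:3405240-3405247, plus strand: tatgcagaagcTGCTGCTAagcacacagtt
Kif3b, with overlapping 7mer-m8 sites, stayed within its spread at 52.8 ± 1.31 CPM with NC and 54.98 ± 2.87 CPM with miR-497 (SD, n = 3; 0.06 ± 0.0659 on the log2 scale, adjusted p = 0.5 by edgeR). Kifap3, the accessory subunit of the complex, was at 70.3 ± 4.34 CPM with NC and 73.2 ± 2.83 CPM with miR-497 (0.06 ± 0.0641 on the log2 scale, adjusted p = 0.46 by edgeR). Kif17, a single-chain relative, had 7 to 17 counts per library and did not pass (-0.30 ± 0.514 on the log2 scale, adjusted p = 0.66 by edgeR). Kif17 had an 8mer. In the kinesin-2 group 2 subunits rose, and Kif3b and Kif17 were not called.

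**Figure D4:**
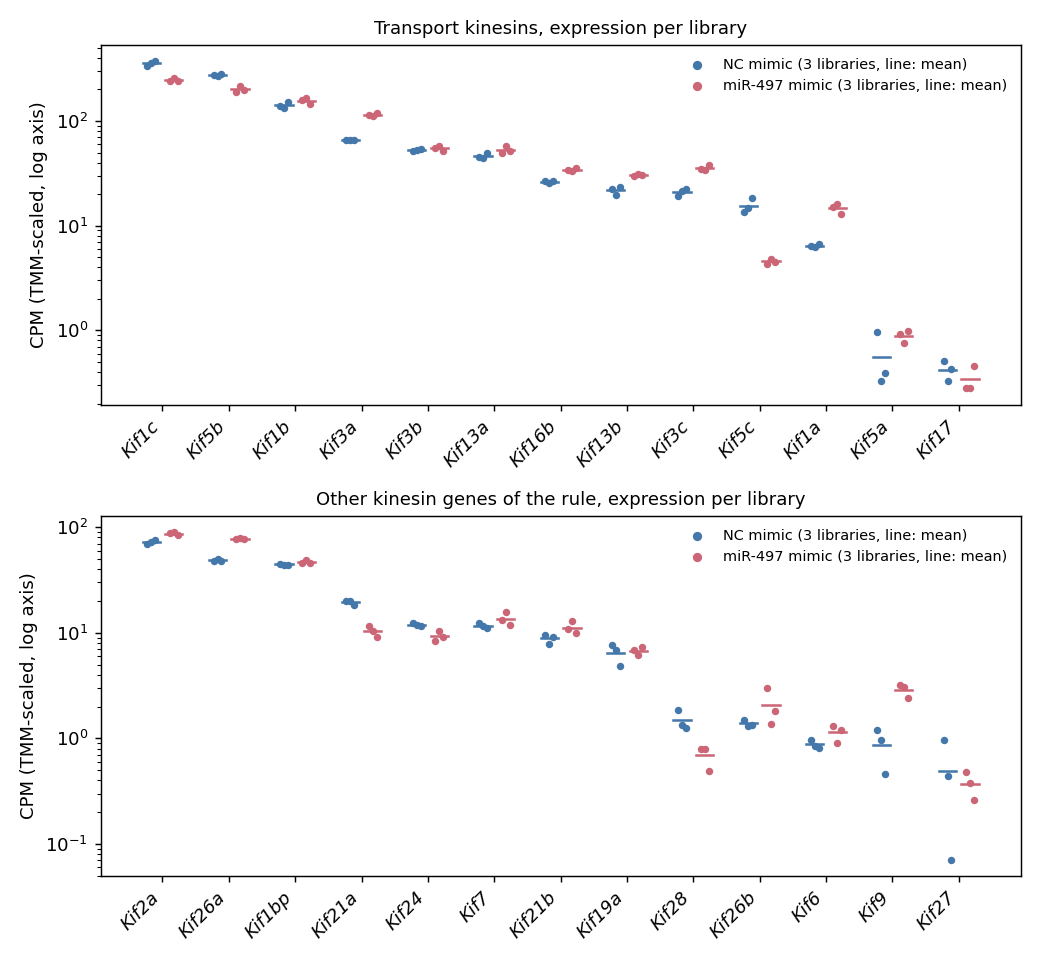
Expression of the transport kinesins (top) and the other tested members (bottom) in CPM on a log axis, in each of the 6 libraries with lines at group means. Kif5c, Kif1c and Kif5b are lower with miR-497 and Kif3a, Kif3c and Kif1a are higher. Kif5a, Kif6, Kif9, Kif17, Kif26b, Kif27 and Kif28 rest on few reads.

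Among adaptors and cargo partners of transport kinesins, 7 of 18 tested were lower and 4 higher (median -0.03), against 26.0% and 23.8% over all genes; the higher count lies near the background share. The 18 include Kif1bp, which is also counted among the other kinesins. Klc2, Arl8a, Fez2 and Trak1 had the smallest p-values of the list. Trak1, an adaptor between kinesin and mitochondria, rose from 34.5 ± 1.89 to 60.3 ± 4.32 CPM (0.80 ± 0.0743 on the log2 scale, adjusted p = 1.4e-07 by edgeR). Arl8a, which couples kinesin to lysosomes, fell from 148 ± 2.60 to 102 ± 4.20 CPM (-0.53 ± 0.0518 on the log2 scale, adjusted p = 2.4e-07 by edgeR), and Fez2, a kinesin adaptor, had -0.47 (± 0.0515, adjusted p = 1e-06 by edgeR). For the motor that runs in the opposite direction, cytoplasmic dynein with dynactin and its regulators, 12 of 23 tested genes were higher and 6 lower (median 0.15). Over all genes 23.8% were higher and 26.0% lower, so the lower count lies at the background share. The intermediate chain Dync1i1 fell (-1.25 ± 0.0901, adjusted p = 7.1e-09 by edgeR) and the light chain Dynll2 fell (-0.62 ± 0.0549, adjusted p = 7.4e-08 by edgeR). The dynactin subunit Dctn2 rose (0.61 ± 0.0587, adjusted p = 2.1e-07 by edgeR). Dctn3 was listed at 0 in all 6 libraries.

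The remaining members followed neither class. Kif21a, which slows microtubule growth at the cell cortex, had 20.1, 19.9 and 18.4 CPM with NC and 11.6, 10.4 and 9.06 CPM with miR-497, and its groups were apart (-0.92 ± 0.108 on the log2 scale, adjusted p = 2.2e-06 by edgeR). Its 3′ UTR held an 8mer.
Kif21a 8mer, chr15:90933646-90933653, minus strand: tgatttttataTGCTGCTAaatatatttta
Its paralog Kif21b, with a pair of 7mer-m8 sites and a 7mer-A1, was at 9.59, 7.81 and 9.23 CPM with NC and 10.8, 12.9 and 9.91 CPM with miR-497. The groups lay close, and the rise passed by a narrow margin (0.34 ± 0.135 on the log2 scale, adjusted p = 0.046 by edgeR); it did not pass without NC replicate 2 (edgeR adjusted p = 0.18), miR-497 replicate 1 (0.062) or miR-497 replicate 2 (0.24), nor with the DESeq2 Wald test (0.067).

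Kif26a, a kinesin-like protein that lacks motor activity and acts in signalling, was measured at 48.2, 49.5 and 48.1 CPM in the NC libraries and at 77.9, 78.3 and 77.7 CPM in the miR-497 libraries, with very little spread, and rose (0.68 ± 0.0595 on the log2 scale, adjusted p = 7.1e-08 by edgeR). Its relative Kif26b did not pass (0.57 ± 0.331 on the log2 scale, adjusted p = 0.17 by edgeR). Kif2a, a depolymerase of spindle poles and of neurons, was kept apart from the mitotic class because it has both roles. It had 68.9, 72.3 and 76.3 CPM with NC and 88.3, 89.7 and 83.8 CPM with miR-497, a small rise (0.27 ± 0.0606 on the log2 scale, adjusted p = 0.0014 by edgeR) opposite in direction to its paralog Kif2c. Dimt1 on the opposite strand covers 19.2% of the Kif2a exon bases and was lower (-0.31, edgeR adjusted p = 0.0094).

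Kif9, a kinesin of motile cilia, had 13 to 97 counts per library, at 1.21, 0.959 and 0.462 CPM with NC and 3.22, 3.05 and 2.40 CPM with miR-497, with all miR-497 values above all NC values (1.70 ± 0.341 on the log2 scale, adjusted p = 0.0005 by edgeR). Kif24, which restrains cilium formation at the centriole, had 12.3, 11.8 and 11.7 CPM with NC and 8.44, 10.4 and 9.06 CPM with miR-497 (-0.35 ± 0.119 on the log2 scale, adjusted p = 0.021 by edgeR). Its fall did not pass without NC replicate 1 (edgeR adjusted p = 0.053), NC replicate 2 (0.053), miR-497 replicate 1 (0.075) or miR-497 replicate 3 (0.054), nor with the DESeq2 Wald test (0.051). Kif28 had 15 to 62 counts per library and 1.87, 1.34 and 1.24 CPM with NC and 0.796, 0.787 and 0.492 CPM with miR-497 (-1.10 ± 0.379 on the log2 scale, adjusted p = 0.023 by edgeR); without NC replicate 1 or miR-497 replicate 3 the adjusted p was 0.099 and 0.088. Kif7, which works at the tip of the primary cilium in Hedgehog signalling, did not pass at 11.7 ± 0.592 CPM with NC and 13.6 ± 1.97 CPM with miR-497 (0.22 ± 0.119 on the log2 scale, adjusted p = 0.13 by edgeR), but had an adjusted p of 0.04 without miR-497 replicate 3; the opposite-strand gene 9330171B17Rik covers 19.1% of its exon bases. Kif6, Kif19a and Kif27 did not pass, with log2 fold changes of 0.38, 0.06 and -0.43 and standard errors of 0.37, 0.173 and 0.653. Kif1bp was at 44.4 ± 0.465 CPM with NC and 46.7 ± 1.74 CPM with miR-497 (0.07 ± 0.0663 on the log2 scale, adjusted p = 0.39 by edgeR), and Kif12 had 1 count in a single NC library. The pseudogenes Kif4-ps and Kif22-ps were listed at 0.

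Set against each other per kilobase of exon, the classes took different shares of the kinesin transcripts in the groups. Mitotic kinesins made up 32.2%, 31.7% and 31.6% of the summed CPM per kb of all members in the NC libraries, against 22.2%, 23.2% and 20.2% with miR-497. Transport kinesins made up 53.3% ± 0.704 with NC and 58.4% ± 1.47 with miR-497, and the others 14.9% ± 0.450 and 19.8% ± 0.339 (SD, n = 3). The transport share was higher with miR-497, but the total that it is a share of was lower (222.6 ± 9.76 against 253.7 ± 5.17 CPM per kb). The higher share therefore does not show a higher level of the transport class. In CPM not divided by length, the summed level of the class was 1002 to 1073 with NC and 927 to 988.2 with miR-497. That sum is a different measure from the share and is not directly comparable with it. The summed level of all members was 253.7 ± 5.17 CPM per kb with NC and 222.6 ± 9.76 with miR-497. Within the NC libraries Kif1c (48.95 ± 2.43 CPM per kb) and Kif5b (34.3 ± 0.630) led, followed by Kif3a (18.3 ± 0.205) and Kif18b (15.9 ± 0.830). With miR-497 Kif1c (33.96 ± 1.30) still led, and Kif3a (32.1 ± 1.14) exceeded Kif5b (25.2 ± 1.74). The length is that of all annotated exons of a gene together, which is longer than most single transcripts, so these levels are approximate.

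**Figure D5:**
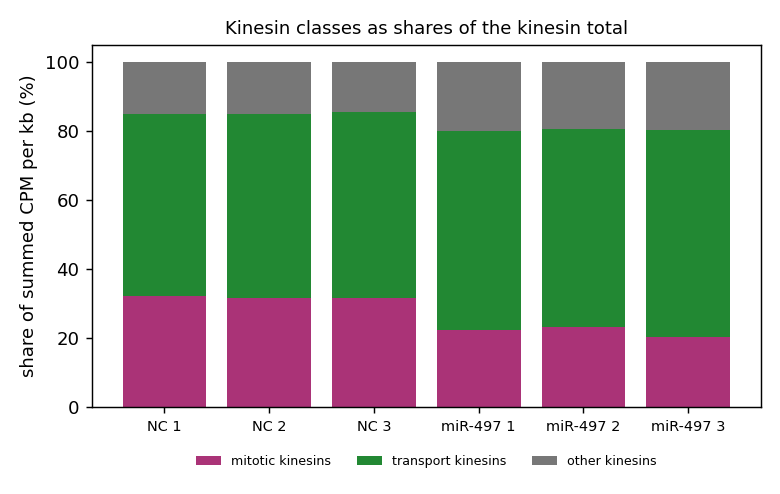
Share of each kinesin class in the summed CPM per kb of all 37 members, 1 bar per library. The mitotic share is 31.6% to 32.2% in the NC libraries and 20.2% to 23.2% in the miR-497 libraries.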

How the data were processed

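Raw counts of reads per Ensembl gene were deposited by the authors as whole numbers, not normalized. The submitters' processing notes name STAR 2.5.4b, featureCounts, Subread 1.6.1, edgeR 3.32.1 and GRCm38; annotation release, strand setting and treatment of multiply aligned reads are not given in the sources used here. Poly(A) libraries were made, per the labels.

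Symbols and exons came from GENCODE M21 (GRCm38), which matched 55141 of 55401 identifiers. Genes were filtered with filterByExpr (minimum count 10, minimum total 15), scaled by TMM and tested with edgeR 4.0.16 in R 4.3.3. A quasi-likelihood F-test was used, with group as the only term and Benjamini-Hochberg adjustment over all 14661 genes. A standard error is the absolute log2 fold change divided by the root of F. The test was checked on made-up counts first. Alternatives were other scalings and filters, DESeq2 1.42.0, limma 3.58.1 voom, the replicate block and leaving out each library. Every member is named, with library values for those with an adjusted p under 0.05; partner lists give at most the 4 smallest p. Klc1, Klc3, Klc4, Kifap3, Mapre3, Cenpe, the named non-kinesin cell type markers and the listed zeros were named beyond that rule, after values were seen. Members and lists were chosen with earlier results of these data known. Promoters came from RefSeq GRCm38.p6, which matched 28 of the 35 tested members by symbol. No 2 libraries matched within sampling noise (chi-square per degree of freedom 8.25 to 127).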

Additional observations from a re-analysis of the deposited data

How the results depend on the processing

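Over 13 alternative fits, 425 of 450 pairs of kinesin and alternative kept direction and side of the threshold, 16 lost the call, 6 gained one and 3 reversed. The 9 mitotic kinesins kept their call in each alternative. The median difference between mitotic and transport kinesins lay between -0.99 and -0.88 with each library omitted in turn. Without 1 library the count of other kinesins called lower ran from 1 (without NC replicate 1 or miR-497 replicate 3) to 3. Over the alternative fits the count of transport kinesins called higher ran from 5 (for example without NC replicate 1) to 7 (for example without NC replicate 3). The count called lower stayed at 3 in that class. With Kif2a counted as mitotic, 1 mitotic kinesin was higher in place of 0. Seed sites were found in 8 members in the shortest 3′ UTR and in 5 as 8mers only, in place of 13; with the shortest 3′ UTR Kif9 gained a site. The reversals, none of them called, were Kif19a without NC replicate 3 (-0.09, and up to 0.19 without another library) and Kif27 with limma voom (0.06) and without NC replicate 1 (0.46, and as low as -0.90 without NC replicate 3); Kif27 had 2 to 32 counts per library. The cause was not tested. With the replicate number as a block, 15 of 15 lower and 8 of 10 higher kinesins were called; Kif13a (adjusted p = 0.071) and Kif21b (0.075) were not, and over all genes 3563 were lower and 3177 higher. Same-numbered libraries' deviations from their group means correlated at -0.119, -0.0351 and -0.133. These values show no positive relation between same-numbered libraries. With 3 libraries per group they cannot decide whether the numbers pair the samples. Kif1b passed with upper-quartile scaling (edgeR adjusted p = 0.01), DESeq2 size factors (0.049) and the filter of a mean count of at least 50 (0.036). It also passed without NC replicate 3 (0.011) or miR-497 replicate 3 (0.019). Its adjusted p ranged from 0.01 to 0.3 over its alternatives. Few counts limit Kif5a, Kif6, Kif9, Kif17, Kif26b, Kif27 and Kif28.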
